A study of Mus musculus with 8 samples.

Results

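The mouse genes for F-box proteins and for the cullin core of their ubiquitin ligases were followed in MII oocytes of young and old females. Members were all symbols, present in both deposited tables, that begin with Fbxo, Fbxl, Fbxw, Skp1, Skp2 or Cul followed by a number, and Btrc. Fbxo43 and Fbxo5 match these names and were set aside. The rule gave 62 of the 8537 genes that both tables hold, namely 22 Fbxo genes, 13 Fbxl genes (Skp2 among them), 15 Fbxw genes with numbers from 13 to 28, 6 further Fbxw genes (Btrc among them) and 6 cullins. The rule uses names and presence in both filtered tables, and no difference between ages, although a gene can pass the filter through a single age. Skp1a and Fbxw7 were not analysed here.

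The oocytes came from RiboTagF/F;Zp3-Cre females of C57BL/6 background, in which the Zp3 promoter drives Cre in growing oocytes and an HA tag is thereby placed on the ribosomal protein Rpl22. Young females were 1 month old, and old females were retired breeders of 12 to 15 months. All females were primed with PMSG (5 IU) and given hCG (10 IU) after 48 h, and MII oocytes were collected 13 h after hCG. Each age gave 2 pools of 200 oocytes, and each pool gave a library of ribosome-bound mRNA (HA) and a library of total mRNA (input), 8 libraries in all. Every group therefore carries the tag, the Cre and the hormone treatment. Values are CPM, reads per gene relative to a library size that was adjusted by TMM (trimmed mean of M values), and the translational efficiency (TE) of a pool is its HA CPM over its input CPM.

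An SCF ligase is built on a cullin scaffold. Cul1 binds the RING protein Rbx1 at one end and Skp1 at the other, and Skp1 holds an exchangeable F-box protein that picks the substrate. Fbxw proteins read substrates through WD40 repeats and Fbxl proteins through leucine-rich repeats, while Fbxo proteins carry other domains or none that is shared. Other cullins use other adaptors, such as Ddb1 for Cul4a and Cul4b, BTB proteins for Cul3 and elongins for Cul2 and Cul5. Substrate destruction by these ligases is part of cell cycle control, including the meiotic divisions of oocytes.

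Libraries held 37817382 to 59688578 reads on genes for HA and 38276453 to 60052814 for input. All 12 oocyte marker genes, such as Gdf9 and Zp3, were in both tables, with a summed level between 9479 and 10855 CPM in input and between 11670 and 18282 CPM in HA. Of 14 cumulus and granulosa cell markers, 10 were in the input table, where they summed to 155 to 330 CPM, and 5 in the HA table, where they summed to 92.4 to 210 CPM. They were lower in old HA libraries (144 and 92.4 CPM) than in young ones (201 and 210 CPM), and their part in the results below was not tested. CPM are shares of a library, so fewer mRNA molecules per oocyte and fewer intact oocytes in a pool cannot be told apart. None of 9 blood and oviduct cell markers was in either table. The old HA libraries differed most from each other, with a median difference of 1.18 on the log2 scale between the 2 libraries over the 62 genes, against 0.53 between the young HA libraries. In input the medians were 0.58 for old and 0.46 for young.

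The 15 Fbxw genes with numbers from 13 to 28 form a tandem cluster on chromosome 9 of GRCm38. It runs from 109139447 (Fbxw21) to 109790670 (Fbxw27), and all 15 are on the minus strand. The annotation has 14 of them as protein-coding and Fbxw23 as a transcribed unprocessed pseudogene. These genes are known as a group of F-box paralogs expressed in mouse oocytes. No other tissue was measured, so whether they are particular to oocytes was not tested. Coding sequences of the 14 genes were between 80.2% (Fbxw24 and Fbxw28) and 99.1% (Fbxw14 and Fbxw28) identical. RefSeq promoter windows (GRCm38.p6, from 250 bases before to 50 bases after the start site) were matched by symbol for 12 of the 15 genes. Without Fbxw23, the windows aligned over 254 to 300 bases and were 84.9% to 97.7% identical, with a median of 91.6% over 55 pairs. The windows of the 3 cluster genes with the highest input level per length are shown because they carry the shared block, and that of Fbxw23 because it does not. They are written 5′ to 3′ on the minus strand, at chr9:109495805-109496104 for Fbxw19, chr9:109626010-109626309 for Fbxw24, chr9:109339610-109339909 for Fbxw28 and chr9:109543140-109543439 for Fbxw23. Capitals mark the hexamer CAGCTG, a form of the E-box CANNTG.
Fbxw19: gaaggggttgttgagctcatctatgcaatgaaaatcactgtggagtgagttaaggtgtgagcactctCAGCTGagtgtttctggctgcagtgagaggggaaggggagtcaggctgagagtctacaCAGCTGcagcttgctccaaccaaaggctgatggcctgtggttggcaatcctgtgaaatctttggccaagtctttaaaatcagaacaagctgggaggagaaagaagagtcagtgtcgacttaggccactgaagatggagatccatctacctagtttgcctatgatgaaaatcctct
Fbxw24: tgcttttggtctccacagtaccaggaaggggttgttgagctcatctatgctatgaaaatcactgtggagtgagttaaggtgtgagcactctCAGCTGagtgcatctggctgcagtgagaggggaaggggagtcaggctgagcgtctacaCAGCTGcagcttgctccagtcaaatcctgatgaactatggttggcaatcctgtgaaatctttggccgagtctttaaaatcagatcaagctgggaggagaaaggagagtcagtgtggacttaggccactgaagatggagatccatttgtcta
Fbxw28: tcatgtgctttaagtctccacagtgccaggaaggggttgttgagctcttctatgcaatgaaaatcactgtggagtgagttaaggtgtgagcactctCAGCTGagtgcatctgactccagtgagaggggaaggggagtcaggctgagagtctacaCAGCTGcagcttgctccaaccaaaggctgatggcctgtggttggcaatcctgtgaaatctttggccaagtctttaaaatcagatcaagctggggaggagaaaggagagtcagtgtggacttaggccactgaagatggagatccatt
Fbxw23: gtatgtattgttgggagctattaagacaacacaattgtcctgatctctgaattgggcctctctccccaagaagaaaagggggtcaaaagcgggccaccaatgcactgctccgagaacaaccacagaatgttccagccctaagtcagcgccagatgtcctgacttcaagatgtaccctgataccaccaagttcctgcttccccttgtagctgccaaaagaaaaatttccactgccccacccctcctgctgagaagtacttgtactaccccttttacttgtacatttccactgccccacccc
CAGCTG was searched on both strands, which for this palindrome is a single search. It occurred in 11 of the 12 windows of the cluster, in 0 of 5 cullin windows and in 17 of 46 member windows, against 16.3% of all 32851 windows. Outside the cluster and the cullins it occurred in 2 of 10 Fbxl, 3 of 16 Fbxo and 1 of 3 other Fbxw windows. The share of the members thus rests mostly on the similar windows of the cluster. The broader motif CANNTG, which includes CAGCTG, occurred in 12 of the 12 windows and in 72.3% of all windows. The RefSeq window of Fbxw23 starts upstream of the gene span in GENCODE, and at most 29 of its bases aligned with another window of the cluster.

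The cluster genes were abundant, and they spanned a wide range. Input levels ran from a mean of 10.8 CPM (Fbxw25) to 525 CPM (Fbxw19). All 15 exceeded the median of the input table per length of transcript, which was 6.44 CPM per kb, and 13 of the 15 exceeded the HA median of 6.77 CPM per kb. Fbxw19 led the cluster at 354 CPM per kb in input (percentile 99.2 of all genes) and 462 CPM per kb in HA (percentile 99.1). Fbxw24 followed with 218 CPM per kb in input, and Fbxw28 with 155 CPM per kb. Fbxw25 and the pseudogene Fbxw23 were at the bottom, with 7.25 and 15.2 CPM per kb in input. Position along the locus did not order the levels, since Fbxw25 lies between Fbxw24 and Fbxw18, which had 218 and 87.2 CPM per kb.

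**Figure D1:**
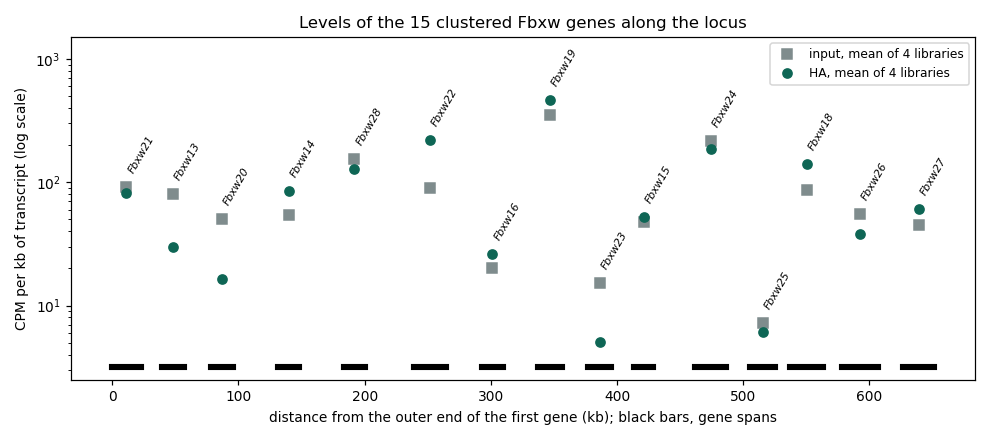
Mean level over 4 libraries of each clustered Fbxw gene in CPM per kb of transcript (log axis), for input (squares) and HA (circles), against distance along the locus in kb, with gene spans as black bars. Fbxw19 has the highest values (354 in input and 462 in HA), and Fbxw25 stands between genes that are far higher.

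Reads can be shared among these genes. Of the 36-base words in their transcripts, 70.0% for Fbxw28 and 67.1% for Fbxw14 also occur in other genes, and for the 15 genes the median was 16.9%, against 0% for the other 47 members. How reads that map to several genes were counted is not given in the sources used here, so values of single paralogs, and of Fbxw14 and Fbxw28 most of all, are uncertain. The sum over the cluster does not depend on how counted reads were split within it, although reads left out because they map to several genes would be missing from it. It was 2341 and 2186 CPM in the old input pools and 2131 and 2172 CPM in the young ones. In HA it was 2643 and 2737 CPM in old and 2133 and 2449 CPM in young. The input means differed by less than the old pools differed from each other, 2263 ± 110 against 2152 ± 29.4 (SD, n = 2 each), while the HA sums did not overlap, 2690 ± 66.6 against 2291 ± 224 (SD, n = 2 each). The direction of the HA difference turned with another scaling. After rescaling to equal library sums, the HA values in old pools were 2438 and 2015, below the 2845 and 3031 of the young pools.

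No clustered Fbxw gene passed the test in input or HA, even at an unadjusted p of 0.05. The median log2 difference, old minus young, was -0.13 in input and -0.09 in HA, beside -0.03 and -0.14 over all genes. Fbxw19 had 528 and 579 CPM in old input, 400 and 592 in young input, 1047 and 598 in old HA and 503 and 592 in young HA. The input values overlapped, and in HA a single old pool was far above the other 3 libraries. Fbxw24 had 241 and 295 CPM in old HA against 277 and 297 in young HA, which overlap.

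In 2 of the cluster genes HA was far lower in old than in young pools, and input differed less. Fbxw13 had 21.7 and 3.62 CPM in old HA and 96.1 and 56.3 in young HA, with 61.1 and 141 CPM in old input and 116 and 158 in young input. Its HA log2 difference was -2.86 ± 1.21 (SE), with an unadjusted p of 0.0504 and an adjusted p of 0.34 in limma. Fbxw20 had 13.1 and 0.665 CPM in old HA and 43.6 and 40.8 in young HA, a log2 difference of -3.15 ± 1.57 (SE, adjusted p = 0.43 in limma). Its old input (52.1 and 78.4 CPM) was also below its young input (83.8 and 87.3 CPM), with a log2 difference of -0.42 ± 0.41 (SE). Both groups of HA values were separate, and in each gene the second old pool was the lowest. Without the first old pool, the HA log2 difference was -4.01 for Fbxw13 and -4.70 for Fbxw20. These values rest on the second old pool, and the spread of that fit comes from the young libraries alone. Over 15 alternatives, the difference ran from -4.01 to -1.72 for Fbxw13 and from -4.70 to -1.61 for Fbxw20. These genes also had the lowest TE of the 45 members with a mean of at least 10 CPM in both tables, at percentiles 4.94 and 2.43 of the 5305 genes past that level. That rank includes the low old HA values. In the young pools alone, TE of Fbxw20 was 0.521 and 0.468 and that of Fbxw13 was 0.827 and 0.356. In the first young pool Fbxo10 (0.160), Fbxw5 (0.174), Fbxl17 (0.329), Fbxw27 (0.348), Fbxw15 (0.447) and Fbxl19 (0.468) were lower than either. These genes were picked for this comparison after their values were seen.

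Among the others, Fbxw22 had 249 and 770 CPM in old HA against 305 and 277 in young HA, with the old pools on either side. Fbxw28 had 331 and 289 CPM in old input against 202 and 220 in young input, and 215 and 129 CPM in old HA against 246 and 272 in young HA. Its old values were thus above the young ones in input and below them in HA, with log2 differences of 0.55 ± 0.27 and -0.63 ± 0.51 (SE). Its near-identical neighbour Fbxw14 had overlapping values in both fractions. Fbxw15 had 62.8 and 33.7 CPM in old input against 113 and 76.5 in young input, with an adjusted p of 0.78 in limma. Fbxw25, the least abundant, had a TE log2 difference of 3.82 ± 1.47 (SE, unadjusted p = 0.0459, adjusted p = 0.72 in limma), which rests on an old input library with 0.181 CPM, or 9 reads. The remaining cluster genes (Fbxw16, Fbxw18, Fbxw21, Fbxw23, Fbxw26 and Fbxw27) had log2 differences between -0.87 and 0.69 in input and between -1.27 and 0.26 in HA.

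**Figure D2:**
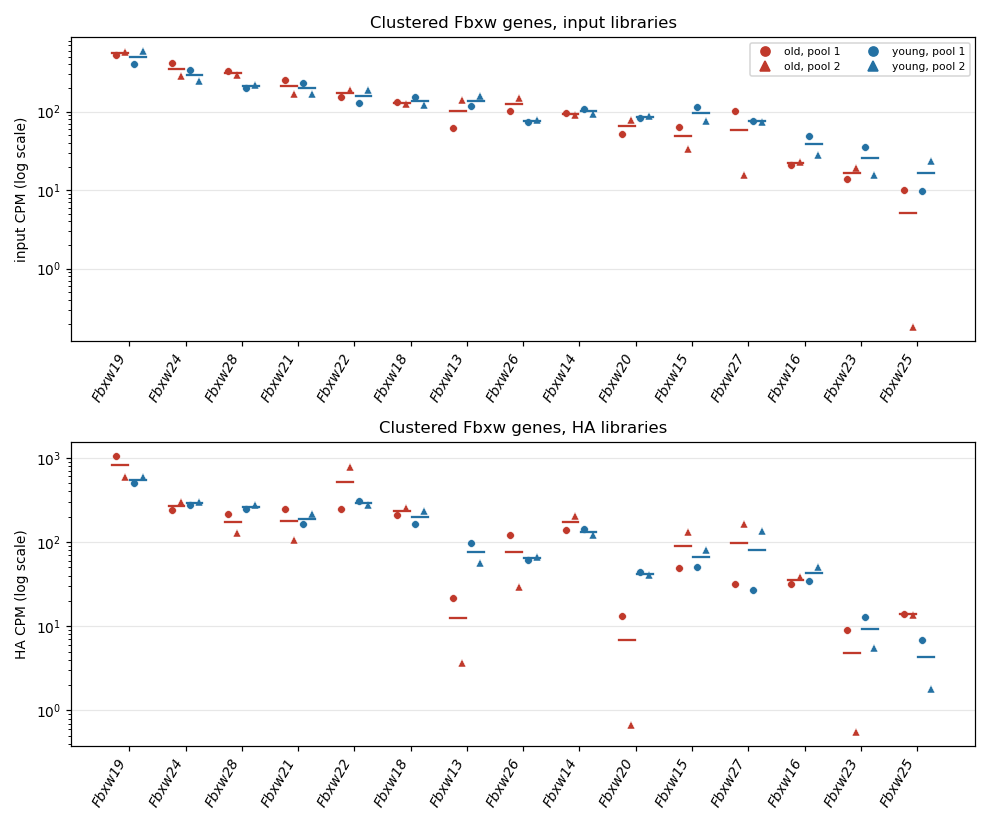
CPM of the 15 clustered Fbxw genes (log axis) in the 4 input libraries (top) and the 4 HA libraries (bottom), with old pools in red, young pools in blue and bars at the mean of the 2 pools. Fbxw13 and Fbxw20 have old HA values below both young ones, and for most other genes the colours overlap.

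The cullins were led by the SCF scaffold itself. Cul1 was the most abundant member in both fractions, at 373 CPM per kb in input (percentile 99.3) and 1050 CPM per kb in HA (percentile 99.8). Input was 1454 and 1330 CPM in the old pools and 815 and 1119 CPM in the young pools. HA was 3363 and 5789 CPM in old and 1942 and 2179 CPM in young. Old values were above young ones in both fractions, with log2 differences of 0.54 ± 0.24 in input (SE, unadjusted p = 0.0527, adjusted p = 0.78) and 1.10 ± 0.38 in HA (SE, unadjusted p = 0.0230, adjusted p = 0.30) in limma. The HA difference was 0.46 (adjusted p = 0.49 in limma) after rescaling to equal library sums. It was 1.49 without the first old pool and 0.71 without the second, and over 15 alternatives it ran from 0.46 to 1.49. TE of Cul1 was 2.31 and 4.35 in old and 2.38 and 1.95 in young, which overlap, and its mean stood at percentile 97.2.

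Cul4b, one of the paired scaffolds that work with Ddb1, came second, with 796 and 1021 CPM in old input, 536 and 746 in young input, 1289 and 2684 in old HA and 1148 and 1293 in young HA. Input values were separate and HA values overlapped (log2 difference 0.51 ± 0.26 and 0.61 ± 0.44, SE). Cul4a, the other Ddb1 scaffold, had 117 and 75.8 CPM in old input against 38.6 and 39.2 in young input, the largest input difference among the cullins (log2 1.25 ± 0.44, SE, unadjusted p = 0.0215, adjusted p = 0.78 in limma). Its HA values overlapped, at 46.1 and 93.5 CPM in old and 50.6 and 92.5 in young. The other 3 cullins were named after their values were seen. Cul3 had 38.8 and 56.4 CPM in old HA against 90.4 and 125 in young HA, and Cul2 2.16 and 0.222 CPM against 7.66 and 13.7, while Cul5 overlapped in all measures. All 6 cullins had a positive log2 difference in input (5 after quantile normalization and 4 after rescaling to equal library sums), and 2 of the 6 a positive one in HA (1, 1 and, after rescaling to the median log2 ratio, 4). The summed cullin level in input was 2779 ± 92.2 CPM in old and 1958 ± 405 CPM in young (SD, n = 2 each), without overlap, and stayed so after rescaling to equal library sums (2735 and 2492 CPM against 1926 and 2239 CPM). The summed HA level was 4887 and 8705 CPM in old against 3325 and 3851 CPM in young, and after that rescaling the first old pool (4508) lay among the young ones (4435 and 4766).

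Of the substrate receptors best known in the cell cycle, Btrc had 63.2 CPM per kb in input (percentile 91.7), Fbxw11 10.7 (percentile 61.6) and Skp2 8.67 (percentile 56.8). Skp2, which directs the Cdk inhibitor Cdkn1b to destruction, had 15.3 and 34.7 CPM in old HA and 91.2 and 82.8 CPM in young HA. Old HA was below young HA, with a log2 difference of -1.87 ± 0.85 (SE, unadjusted p = 0.0655, adjusted p = 0.37 in limma), while input overlapped at 58.2 and 37.1 CPM against 46.9 and 72.3 CPM. Btrc encodes a beta-TrCP, which recognises phosphorylated degrons. It had 281 and 25.8 CPM in old HA and 126 and 170 CPM in young HA, so the old pools lay on either side of the young ones. Its paralog Fbxw11 also had old pools on either side, with 127 and 7.61 CPM in old HA and 38.5 and 28.1 CPM in young HA. In input Btrc was at 229 and 203 CPM in old and 208 and 127 CPM in young, and Fbxw11 at 26.6 and 42.3 CPM in old and 54.5 and 48.5 CPM in young.

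**Figure D3:**
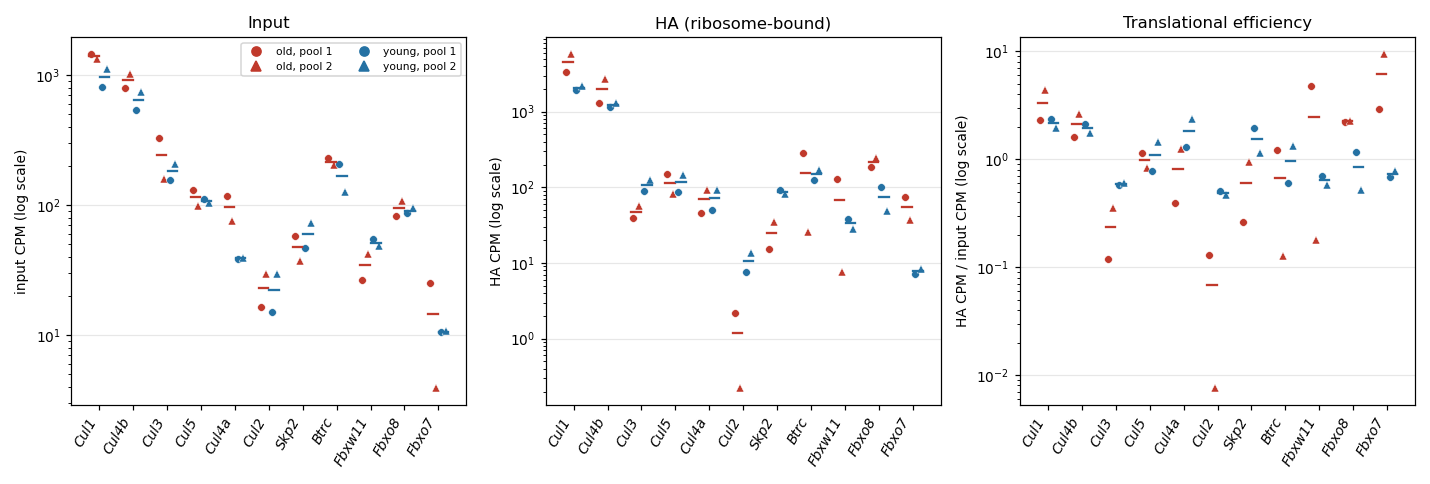
Input CPM, HA CPM and TE (log axes) of the 6 cullins, Skp2, Btrc, Fbxw11, Fbxo8 and Fbxo7 in each pool, old in red and young in blue, with bars at the mean of 2 pools. Cul1 and Cul4b stand above the rest in both fractions, and Btrc and Fbxw11 have old HA values on both sides of the young ones.

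Among the Fbxo genes, Fbxo8 and Fbxo7 had higher HA values in old than in young pools, while their input values overlapped. Fbxo8, which joins an F-box to a Sec7 domain, had 183 and 245 CPM in old HA against 102 and 48.8 in young HA, and 82.0 and 108 CPM in old input against 87.4 and 94.3 in young input. Its HA log2 difference was 1.57 ± 0.62 (SE, unadjusted p = 0.0400, adjusted p = 0.32 in limma) and its TE was 2.23 and 2.28 in old against 1.16 and 0.518 in young. Fbxo7, known for its link to inherited parkinsonism, had 74.0 and 37.1 CPM in old HA against 7.21 and 8.30 in young HA. Its old input pools lay on either side of the young ones, at 25.1 and 3.91 CPM against 10.5 and 10.7 CPM. Its TE of 2.94 and 9.48 in old and 0.686 and 0.772 in young gave a log2 difference of 2.65 ± 0.81 (SE, unadjusted p = 0.0205, adjusted p = 0.72 in limma). Old and young were separate in HA and in TE for both genes, which were named for their small p. Both old pools lay above both young ones for 17.2% of all genes in HA and 17.2% in TE. DESeq2 on the recovered reads gave Fbxo7 an adjusted p of 0.0471 in HA, where it called 5.71% of all genes, and over 15 alternatives the adjusted p of Fbxo7 ran up to 0.96. Fbxo11, named after its values were seen, was the most abundant Fbxo gene in HA, with a TE of 1.98 and 1.96 in old against 0.910 and 0.863 in young (log2 difference 1.15 ± 0.69, SE, adjusted p = 0.78 in limma).

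Summed over the 22 Fbxo genes, HA was 2680 and 2656 CPM in old and 1819 and 1793 CPM in young, and input 1950 and 1714 CPM in old and 1996 and 1974 CPM in young. TE of the sums was 1.37 and 1.55 in old and 0.911 and 0.908 in young. After rescaling to equal library sums, the HA sums overlapped (2472 and 1955 against 2426 and 2219), and TE was 1.32 and 1.24 in old against 1.06 and 1.13 in young. By gene, 12 of the 22 had a positive and 10 a negative TE difference.

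The 3 members with the smallest p among those lower in old HA were scarce. Fbxw8, a receptor that works with Cul7, had 0.0238 and 0 CPM in old HA, which is 1 and 0 reads, and 4.33 and 2.66 CPM in young HA, which is 335 and 151 reads. The old to young ratio of pooled reads was 0.00399 (exact 95% interval 1.01e-04 to 0.0223, counting error only), with a log2(CPM + 1) difference of -2.13 ± 0.61 (SE, unadjusted p = 0.0104, adjusted p = 0.30 in limma). The likelihood ratio test of edgeR gave Fbxw8 an adjusted p of 0.0464 in HA, where it called 3.32% of all genes, and called no member in input, where it called 0.475%. Of the exonic bases of Fbxw8, 54.0% overlap the spans of Gm26411 and Gm9754. Fbxo36 had 1 read in each old HA library against 360 and 77 in the young ones (ratio 0.00888, exact 95% interval 0.00107 to 0.0323), and a log2 difference of -1.82 ± 0.64 (SE, adjusted p = 0.30 in limma). Fbxo15, a gene active in pluripotent cells, had 0.0238 and 0.148 CPM in old HA against 4.33 and 4.78 in young HA, at 25.9 and 6.56 CPM in old input against 8.55 and 3.57 in young input. Its log2 differences were -2.36 ± 0.69 in HA (SE, unadjusted p = 0.0117, adjusted p = 0.30) and -3.47 ± 1.31 in TE (SE, unadjusted p = 0.0442, adjusted p = 0.72) in limma. Old and young HA values were separate in all 3 genes, each below 5 CPM in every HA library. They were named for their small p, and their place in the filtered HA table comes from the young libraries, so the separation adds no support. Both old pools lay below both young ones in HA for 24.7% of all genes. Without the second young pool, the HA log2 difference was -2.40 for Fbxw8, -2.46 for Fbxo36 and -2.30 for Fbxo15. That fit has a single young library, and its spread comes from old libraries with very few reads of these genes. Over 13 alternatives the adjusted p of these genes ran up to 0.79.

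In TE, Fbxl12 had 0.00416 and 0.0726 in old against 1.20 and 0.516 in young, a log2 difference of -2.98 ± 1.16 (SE, unadjusted p = 0.0474, adjusted p = 0.72 in limma). Its old HA libraries held 2 and 28 reads, and 37.1% of its exonic bases overlap Ubl5. Fbxo47, needed in meiosis, had a TE of 0.309 and 0.00425 in old against 2.42 and 0.707 in young (log2 difference -3.19 ± 1.38, SE, adjusted p = 0.72 in limma). Its second old HA library held 2 reads, and the difference was -1.92 without the second old pool and -4.46 without the first. In input, Fbxl19, which binds CpG islands, had 35.3 and 25.7 CPM in old against 80.1 and 68.5 in young (log2 difference -1.27 ± 0.48, SE, unadjusted p = 0.0284, adjusted p = 0.78 in limma). Fbxo25 had 0.919 and 1.02 CPM in old input against 9.06 and 17.5 in young input (log2 difference -2.79 ± 0.99, SE, unadjusted p = 0.0213, adjusted p = 0.78 in limma). Old and young values were separate in these 4 genes, which were named for their small p, so the separation adds no support. Both old pools lay below both young ones for 20.4% of all genes in TE and 18.9% in input.

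Over all 62 members, none passed an adjusted p of 0.05 in limma in input, HA or TE, where 0.0095%, 0% and 0% of all genes did. At an unadjusted p of 0.05, 3 of 62 members were called in input (1 higher and 2 lower in old) against 6.18% of all genes (2.71% higher and 3.48% lower). In HA 6 of 62 were called (2 higher and 4 lower) against 14.7% of all genes (4.28% higher and 10.5% lower). The 4 lower ones (Fbxo15, Fbxo17, Fbxo36 and Fbxw8) had at most 0.784 CPM in both old HA libraries and are in the filtered table through the young ones. In TE 4 of 62 were called (2 higher and 2 lower) against 6.56% (2.33% higher and 4.23% lower). Rescaling to equal library sums moved the split to 1 higher and 4 lower in input (716 of all 10530 genes called), 0 and 8 in HA and 1 and 2 in TE. The HA median of all genes moved from -0.14 to -0.68, and that of the members from -0.10 to -0.70. Quantile normalization gave 1 higher and 4 lower in input (603 of all 10530 genes called), 2 and 3 in HA and 2 and 0 in TE. Rescaling to the median log2 ratio gave 2 and 1 in TE. Both old values exceeded both young ones for 11 members in input (16.4% of all genes), 9 in HA (17.2%) and 11 in TE (17.2%). Both were below for 10 in input (18.9%), 13 in HA (24.7%) and 14 in TE (20.4%). The member counts are thus near or under the background in each comparison. Median differences of the members were 0.06 in input, -0.10 in HA and -0.15 in TE, beside -0.03, -0.14 and -0.10 over all genes.

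**Figure D4:**
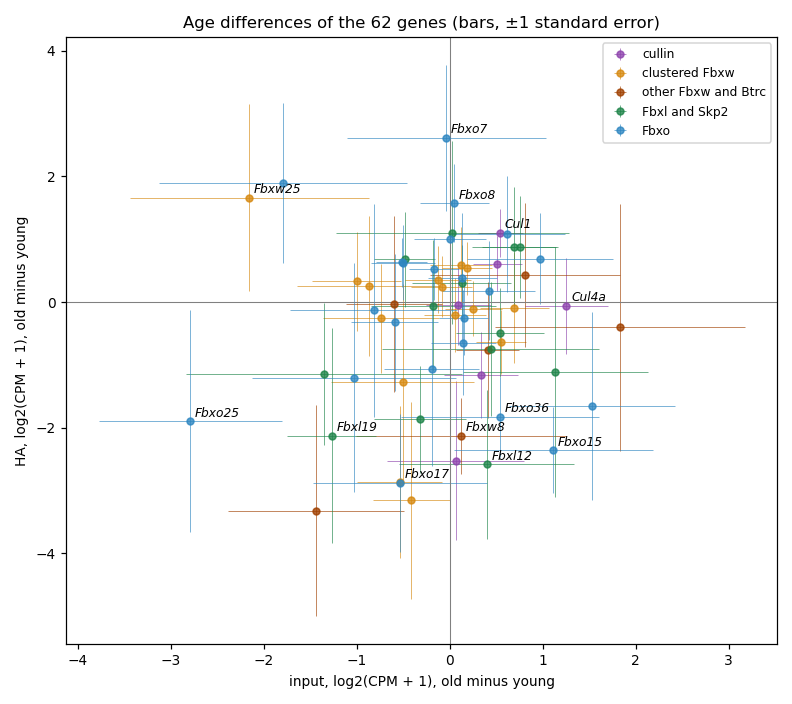
Log2(CPM + 1) difference, old minus young, in input (horizontal) and HA (vertical) for the 62 members, coloured by family, with bars of 1 standard error; names mark members with an unadjusted p under 0.05 in input, HA or TE. Most members lie within 2 units of 0 on both axes, and the spread is wider in HA.

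By family, members with an unadjusted p under 0.05 in HA were 1 of 6 cullins, 0 of 15 clustered Fbxw genes, 1 of the other 6 Fbxw genes (Fbxw8), 0 of 13 Fbxl genes and 4 of 22 Fbxo genes (Fbxo8 higher and Fbxo15, Fbxo17 and Fbxo36 lower), beside 14.7% of all genes. The median HA difference was -0.05 for the cullins, -0.58 for the other Fbxw genes, -0.49 for the Fbxl genes and 0.02 for the Fbxo genes. After rescaling to equal library sums these HA medians were -0.68, -1.08, -1.12 and -0.45, beside -0.68 over all genes, so the Fbxo median changed sign. Input medians were 0.42 for the cullins, 0.26 for the other Fbxw genes, 0.13 for the Fbxl genes and -0.02 for the Fbxo genes, and after the same rescaling 0.23, 0.09, -0.06 and -0.20, beside -0.19 over all genes, so the Fbxl median also changed sign. In 54 of the 62 members every library held more than 3 reads, including all 15 clustered genes and all 6 cullins.

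HA and input were normalized separately, so the TE of a gene is a level only relative to other genes of the same pool, and genes were ranked by their mean log2 TE over the 4 pools. Among the 45 members with a mean of at least 10 CPM in both tables, 32 were above the median log2 TE of the 5305 genes past that level. The median log2 TE of these members was 0.24 and 0.05 in the old pools and -0.25 and 0.09 in the young pools, beside -0.15 and -0.15 in old and -0.37 and -0.36 in young over all such genes. Fbxo9 had the highest mean, with a TE of 1.00 and 8.61 in old and 2.59 and 5.05 in young, followed by Cul1. The old pools of Fbxo9 lay on either side of the young ones.

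**Figure D5:**
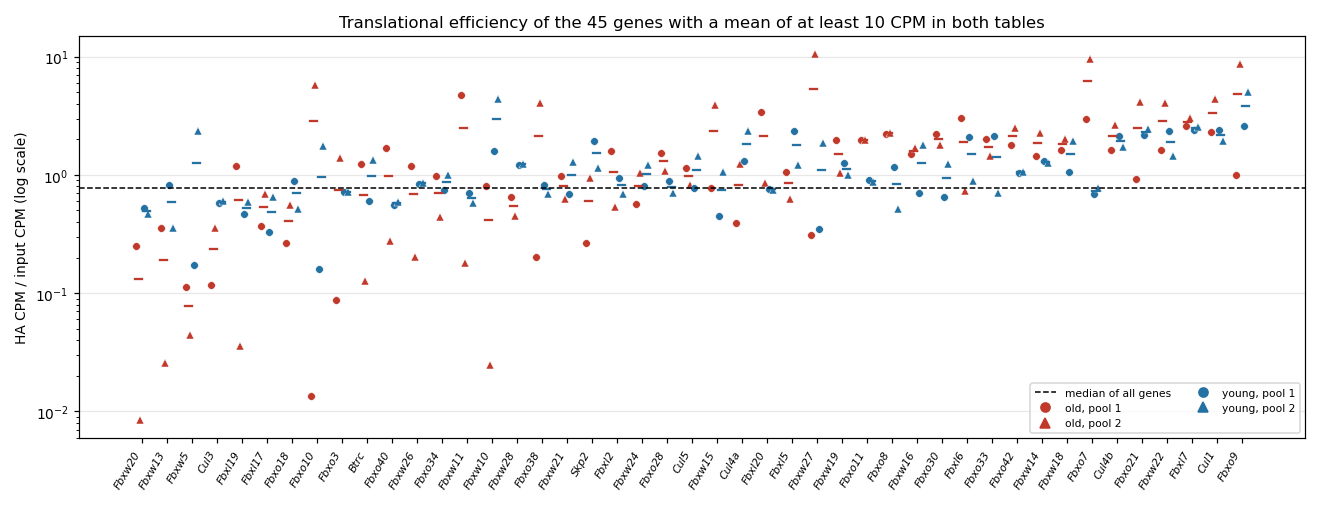
TE (HA CPM over input CPM, log axis) in each pool of the 45 members with a mean of at least 10 CPM in both tables, ordered by mean log2 TE, with old in red, young in blue and the median of all genes as a dashed line. Fbxw20 and Fbxw13 are lowest and Cul1 and Fbxo9 highest, and the old pools spread more widely than the young ones.

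In maturing oocytes, many mRNAs are loaded on ribosomes under control of cytoplasmic polyadenylation elements (CPEs) in the 3′ UTR, which bind Cpeb1. The motifs TTTTAT and TTTTAAT were searched on the sense strand of the longest annotated 3′ UTR in GENCODE M21. At least 1 was found in 33 of 61 members, against 70.7% of all genes in both tables with a 3′ UTR. All 6 cullins held at least 1, as did 9 of 13 Fbxl genes, 15 of 22 Fbxo genes and 3 of the other 6 Fbxw genes, while 0 of 14 clustered Fbxw genes did. Annotated 3′ UTRs of the clustered genes had a median of 74 bases, against 1332 bases over all genes, so there was less sequence to search. The element nearest the 3′ end, in capitals, is shown for the cullins other than Cul2 and for Btrc, Fbxw11 and Skp2, the core genes of the family. The bases from the element to the 3′ end number 106 in Cul1, 275 in Cul4b, 269 in Cul4a, 76 in Cul3, 124 in Cul5, 237 in Btrc, 1687 in Fbxw11 and 8 in Skp2.
Cul1: gtgtttcatttTTTTAATgtgtgaaaata
Cul4b: tatttgacttcTTTTATacttctgatga
Cul4a: atataactcgaTTTTATgctaaattatt
Cul3: ggacagcatttTTTTATttgtcatttaa
Cul5: taatttttggaTTTTATtttttaagttg
Btrc: agatatcaagaTTTTATttgaagagctt
Fbxw11: tagctattttcTTTTATtaactgttctc
Skp2: aataaatacatTTTTATaagaacaa
Whether the element goes with the difference between ages was not tested. Over the 13 clustered genes past 10 CPM, which hold no element, the median log2 TE was -0.27 and 0.30 in the young pools, with -0.04 and 0.05 in the old ones.

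Of 33 other genes of the pathway, 31 were in the input table and 27 in the HA table. Calls at an unadjusted p of 0.05 were 3 of 31 in input, beside 6.18% of all genes, 5 of 27 in HA, beside 14.7%, and 1 of 27 in TE, beside 6.56%, which are few genes in each. In input 1 was higher in old (Ube2d1, a ubiquitin-conjugating enzyme) and 2 lower (Cops5 and Cops7a, of the COP9 signalosome that removes Nedd8 from cullins) in limma. In HA 2 were higher (Cops2 and Ddb1) and 3 lower (Rbx1, Ube2f and Cops7b), and in TE 0 were higher and 1 lower (Cops7b). Ddb1, the adaptor of Cul4a and Cul4b, had a HA log2 difference of 1.22 ± 0.36 (SE), and Rbx1, the RING partner of Cul1, -1.56 ± 0.58 (SE), with adjusted p values of 0.30 and 0.31 in limma. The median difference of the list was -0.12 in input, -0.51 in HA and -0.33 in TE, beside -0.03, -0.14 and -0.10 over all genes. Of 12 known SCF substrates, 9 were in both tables and 0 had an unadjusted p under 0.05 in any comparison, with medians of 0.38 in input, 0.67 in HA and 0.16 in TE.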

How the data were processed

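Per the deposited protocols, libraries were made with a kit that primes with random and poly(T) primers and were sequenced as single-end reads. The authors trimmed reads with Trimmomatic 0.36, aligned them with HISAT2 to GRCm38 (mm10), counted them with HTSeq per gene of GENCODE M11 without strand, introns included, and deposited TMM-scaled CPM from edgeR as signal values, separately for HA and input. Versions of HISAT2, HTSeq and edgeR used there are not given in the sources used here. Low genes were filtered by the authors, at 10 CPM in at least 2 libraries as the Methods state, although lower genes are in the tables. Without strand, reads of a gene and of an antisense gene cannot be told apart, and reads in the overlap of gene spans are ambiguous.

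From the deposited signal, whole reads were recovered (100% of values within 0.01 read of a whole number), and the value of 1 read was 0.0129 to 0.0370 CPM in HA and 0.0145 to 0.0263 CPM in input. Columns left out numbered 0. The main test was limma 3.58.1 (R 4.3.3, trend) on log2(CPM + 1), old minus young, two-sided, in input, HA and the log2 TE of each pool, with Benjamini-Hochberg adjustment over all 10530, 8898 or 8537 genes. The study's likelihood ratio test was run on the recovered reads as an alternative, where an adjusted p under 0.05 was reached by 50 genes in input and 295 in HA, against 1 and 0 in limma. Fold changes on this scale understate those of low genes. The pools are biological replicates per the Methods, and an exact permutation test of 2 against 2 pools cannot go below p = 0.333. Count tests (edgeR 4.0.16, DESeq2 1.42.0) ran on the recovered reads. On simulated data with 200 changed genes, limma was also run, and the outcome is not reported here. Levels between genes are CPM per kb of the longest protein-coding transcript in GENCODE M21. Intervals cover counting error only.

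The members and gene lists were chosen with earlier results of these data known. Named genes were the core SCF genes; the 3 most abundant members per table; the 3 with the smallest p in each direction and comparison; the 2 highest and 2 lowest in TE at 10 CPM; and the 15 clustered Fbxw genes. Alternatives were other pseudocounts, filters, scalings, a replicate block, the count tests, an interaction over 8 libraries and leaving out each pool.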

Additional observations from a re-analysis of the deposited data

How the results depend on the processing

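With 2 pools per age, counts of members at an unadjusted p under 0.05 moved with single pools. Counts over all genes moved in the same direction in input, HA and TE, up without an old pool and down without a young pool. The moves are thus not particular to the members. A fit with a single library at one age takes its spread from the other age alone, so these counts show instability only. Leaving out each pool in turn gave 2 to 9 members in input, 4 to 14 in HA and 1 to 13 in TE. In input there were 9 without the first old pool and 8 without the second, and 2 without either young pool. In HA there were 14 without either old pool, 4 without the first young pool and 5 without the second. In TE there were 13 without the first old pool, 12 without the second and 1 without either young pool. An adjusted p under 0.05 was reached in HA by 5 members without the first old pool (Btrc, Cul1, Fbxl19, Fbxw13 and Fbxw20) and by 3 without the second young pool.

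Of the scalings, quantile normalization gave 5 such members in input (603 of all 10530 genes) and 2 in TE. Rescaling to the same sum gave 5 in input (716 of all 10530 genes). Requiring 10 CPM in at least 2 libraries gave 2 in HA (2 higher and 0 lower in old, with 537 of all 5642 genes) and 2 in TE. A mean of at least 10 CPM gave 3 in HA (2 higher and 1 lower) and 1 in TE. Fewer genes were tested with these filters (48 members in HA). A pseudocount of 5 CPM gave 2 in TE, DESeq2 gave 10 in HA, and the interaction over the 8 libraries gave 2 in TE. For the other settings the cause was not tested. The 18 differences named for their smallest p changed sign under 0 of the alternatives run, which follows in part from how they were chosen. Over all 62 members 29 changed sign under at least 1 alternative in input, 37 in HA and 32 in TE. In HA these include Btrc (-2.46 to 0.94), Fbxw11 (-1.98 to 1.92), Cul4b (-0.13 to 1.14) and Fbxw19 (-0.14 to 0.94). Rescaling to the same sum lowered the HA median of all genes to -0.68, so a turn of a small positive difference is not particular to these genes. Apart from the fits without a pool, an adjusted p under 0.05 was reached only in HA, by Fbxw8 (edgeR likelihood ratio test) and Fbxo7 (DESeq2). These tests called 3.32% and 5.71% of all genes in HA. The replicate number did not pair the samples: deviations of pools with the same number correlated at 0.03 in input, 0.08 in HA and 0.01 in TE. With the number as a replicate block the counts were 3 in input, 6 in HA and 3 in TE.

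Members with 3 reads or fewer in a library are limited by depth, since such a level lies at or under 0.111 CPM in every library.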

Other observations

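Another 5 genes with matching names were in the input table but not in the HA table, so they are no members. Fbxo22, which has a role in p53 and histone demethylase turnover, was at 6.69 and 11.6 CPM in old input and 11.4 and 14.9 CPM in young input. Fbxo32, the muscle ligase atrogin-1, was at 0 and 17.9 CPM in old and 4.48 and 0.0788 CPM in young, so pools of the same age differed more than the ages did. Fbxo45, Fbxw2 and Fbxl18 had means of 4.89, 2.81 and 2.37 CPM.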
